A study of Mus musculus with 2 samples.

Results

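The cells described here were those with high Dppa5a in a pair of populations of the series, namely cells at d16 of treatment and the line grown from such cultures. A cell was a member when Dppa5a reached 1000 CPM, that is, 1000 of 1000000 reads of the cell. By this limit 1278 of 4315 d16 cells (29.6%, 95% interval 28.3 to 31.0%) and 926 of 1151 d16+10p cells (80.4%, 78.0 to 82.7%) were members, 2204 of the 17720 cells of the series. As a reference, 570 of 801 naive cells reached the same limit. Dppa5a, which encodes an RNA-binding protein of early embryonic cells, was the value the cells were selected on, and its level is a description only.

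The d16 cells came from primed mEpiSCs, which are epiblast stem cells of the mouse, of the Oct4GIP line (an Oct4-driven GFP and puromycin transgene, strain 129/Ola). They were held on MEF feeders with FGF2 and Activin A for a day and then treated with AICAR, an activator of AMP-activated kinase (AMPK), together with LIF for 16 days in serum-containing Basal medium. The d16+10p cells were the same treatment's reverted cells after 10 passages in 2iL, that is, LIF with a MEK and a GSK3 inhibitor, in a serum-free medium without feeders. The naive cells were mouse embryonic stem cells of another line, Rex1-GFP, in 2iL. All populations carried oligonucleotide tags and were sequenced in 1 cDNA library, with 0 shared cell barcodes. Each population was 1 tagged sample of 1 line, so no test was possible. Time, AICAR, the MEK and GSK3 inhibitors, medium, serum, feeders and passage cannot be told apart between d16 and d16+10p. Whether both came from the same run of the treatment is not stated, and a difference between runs cannot be told apart from these either.

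Naive pluripotency is the state of the epiblast before implantation, and is held by a network of transcription factors that LIF signaling and 2i sustain. Primed cells, which resemble the epiblast after implantation, depend on FGF and Activin instead. Pluripotent cells of the naive kind have little DNA methylation, and a set of germ line genes with methylated promoters in other cells is known to be partly active in them. Their metabolism also shifts with state and medium, since glycolysis, respiration and threonine-based one-carbon metabolism are all used to different degrees.

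The d16 members held 20774983 reads and the d16+10p members 23273088, with medians of 14255 and 24034 reads and of 4120 and 5301 genes per cell. Their median Dppa5a level per cell was 3611 and 3080 CPM. The lowest members stood at 1012 and 1018, and the highest cells left out at 992 and 965. Few cells lay next to the limit, since 16 and 11 cells had 1000 to 1100 CPM and 12 and 6 had 900 to 1000. Levels of genes are given in CPM, the summed reads of a gene scaled to 1000000 summed reads of the group, with 95% intervals for counting error only. Reads were not collapsed to molecules, so the true uncertainty is wider.

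Both groups were close to each other over most genes. Of 3758 genes that reached 50 CPM in one group or both, 92.7% differed by less than 1.5-fold, and the median log2 ratio of d16 over d16+10p was 0.03 (pseudocount 1 CPM). At least 2-fold higher in d16 were 37 genes (0.985%), and at least 2-fold higher in d16+10p were 23 genes (0.612%). Past 4-fold were 10 and 6 genes. With the TMM scaling of edgeR, which moved all ratios by -0.13, the counts were 28 and 36, and with the size factors of DESeq2, which moved them by -0.16, they were 26 and 39. Of the 60 genes called by total reads, 53 lay within 2-fold of naive cells in d16+10p, whereas 15 did so in d16. Over all 3758 genes these numbers were 3715 and 3642, and the 60 were chosen for a difference between the groups, so their counts are a description only.

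**Figure D1:**
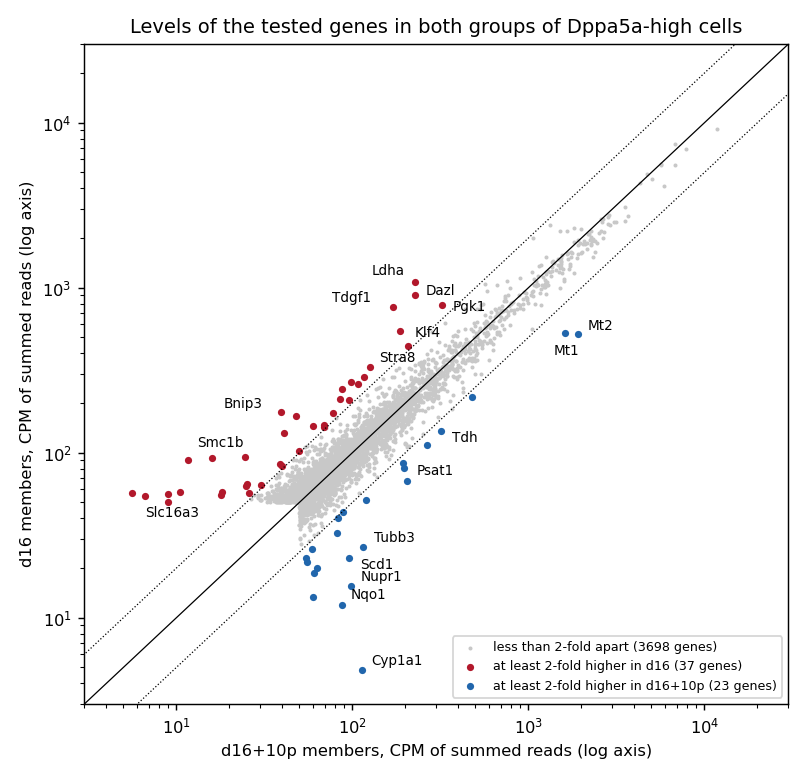
Each point is a gene, with its CPM in d16+10p cells on the horizontal and in d16 cells on the vertical log axis; the solid line marks equal levels and the dotted lines 2-fold. The 3698 grey genes follow the diagonal, with 37 red genes above and 23 blue genes below it.

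The first question was whether the pluripotency network itself differed. The core genes were at like levels in both groups. Pou5f1, which encodes OCT4, was at 345 CPM (337 to 354) in d16, 368 CPM (360 to 376) in d16+10p and 361 CPM in naive cells. Sox2, its partner, was at 564, 437 and 346 CPM. L1td1, Sall4, Dppa2 and Trim71 had log2 ratios between -0.24 and 0.06.

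The exception in this list was Tdgf1, the co-receptor CRIPTO of Nodal signaling. It was at 764 CPM (752 to 776) in d16, 171 CPM (166 to 176) in d16+10p and 369 CPM (359 to 379) in naive cells, which is a log2 ratio of 2.15 (2.11 to 2.21). The d16 cells thus stood above both 2iL populations. After each cell was thinned to 5000 reads, a Tdgf1 read was found in 82.5% of d16 and 47.9% of d16+10p cells, against 18.3% of macrophage-like background cells. Median depths before thinning were 14255, 24034 and 15674 reads. Below 50 CPM, Utf1, a chromatin-bound factor of pluripotent cells, was at 48.2 CPM in d16 and 15.3 in d16+10p, whereas Dppa4 (41.7 and 30.7 CPM) and Lin28a (19.01 and 19.42 CPM) were within 2-fold.

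Of the 16 tested genes of naive pluripotency, 15 were within 2-fold, and the list's median log2 ratio was -0.12 beside 0.03 over all genes. Nanog was at 510 CPM in d16, 394 in d16+10p and 496 in naive cells. Zfp42 (REX1), a classical naive marker, was at 488, 441 and 667 CPM. Esrrb and Tfcp2l1, factors downstream of GSK3 inhibition and LIF, were at 117 and 94.9 CPM in d16 against 134 and 115 CPM in d16+10p. In both groups these markers were within 2-fold of the naive line.

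The member past 2-fold was Klf4, a target of LIF and STAT3, which was at 442 CPM in d16, 207 in d16+10p and 350 in naive cells, a log2 ratio of 1.09 (1.05 to 1.15). With both other scalings this ratio fell below 2-fold, to 0.97 and 0.93. Klf2 and Klf5 had ratios of 0.41 and 0.29. Pecam1, the surface antigen used to sort naive cells, was at 71.7 CPM in d16, 38.5 in d16+10p and 44.7 in naive cells, and the Polycomb cofactor Jarid2 was at 172, 109 and 112 CPM.

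Other members leaned the opposite way. Nr0b1, which encodes the nuclear receptor DAX1, was at 32.5 CPM in d16 and 63.8 in d16+10p. Zfp57, a guardian of imprints, was at 50.3 and 87.5 CPM, and Fgf4, the autocrine growth factor of these cells, at 32.0 and 52.98 CPM. Naive cells lay between both groups for each of these 3 genes. Mylpf, Dppa3, Nr5a2 and Tbx3 had ratios between -0.32 and -0.08. Dppa3, a maternal factor that protects methylation marks, was at 119 and 147 CPM but at 32.1 CPM in naive cells, so it set both Oct4GIP-derived groups apart from the naive line. Among members below 50 CPM, Gbx2 was at 19.9 and 8.89 CPM and Manba at 24.8 and 8.85 CPM, and Prdm14 and Tcl1 were within 2-fold.

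**Figure D2:**
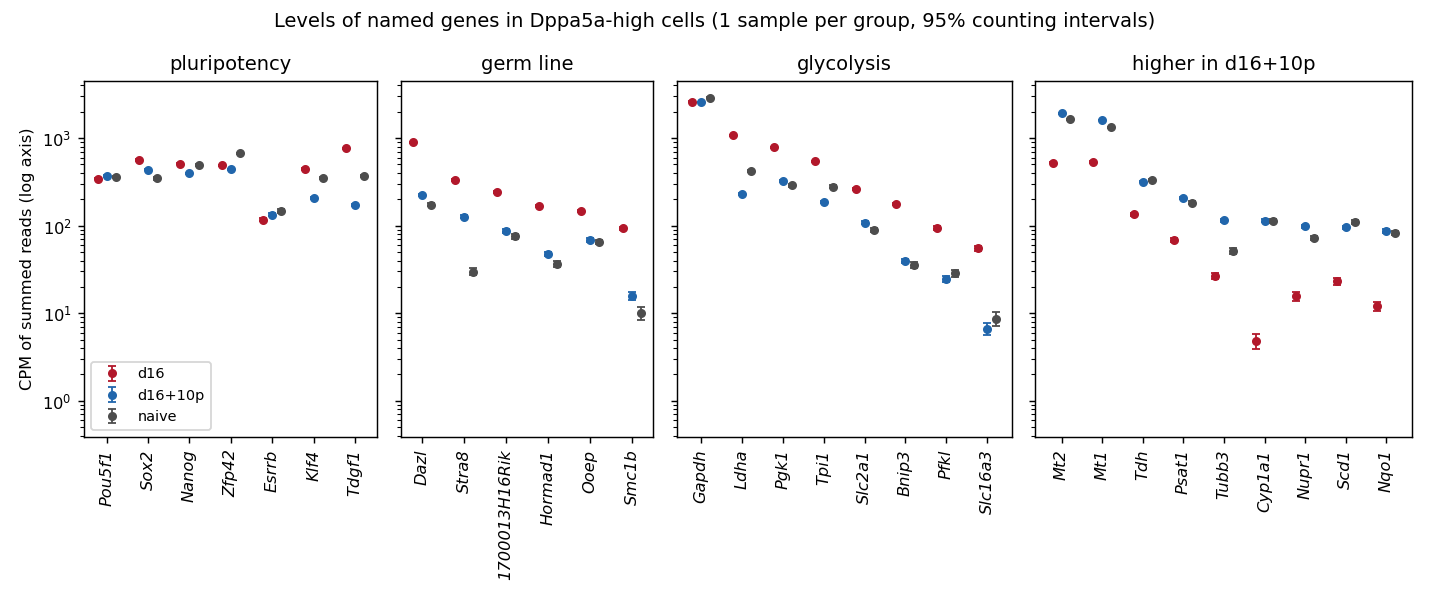
Points are CPM (log axis) of named genes in d16 (red), d16+10p (blue) and naive (grey) cells at the same Dppa5a limit, with 95% counting intervals and 1 sample per group. Pou5f1, Nanog and Gapdh lie close together, the germ line genes and most glycolytic genes are highest in d16, and the genes of the last panel are lowest there.

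Few markers of the primed state reached 50 CPM in either group. Of 20 primed and formative genes, 2 did so, Sox4 with a log2 ratio of 0.29 and Zic5 with 0.06. Fgf5 was at 16.8 and 14.6 CPM and Otx2 at 18.3 and 15.8 CPM. None of 9 genes of Nodal and Activin signaling was 2-fold apart (median 0.25), with Id3 at 212 and 181 CPM and Lefty1 at 78.4 and 81.7 CPM. None of 7 ERK targets was either (median 0.26). Only d16+10p was grown with a MEK inhibitor, and its effect was not tested. Egr1 was at 580 and 572 CPM and Etv5 at 161 and 134 CPM.

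Targets of the culture's other signals were mixed. Among 3 tested Wnt genes, Sp5, a direct target of beta-catenin, was at 55.4 CPM in d16, 18.1 in d16+10p and 25.5 in naive cells. Its log2 ratio of d16 over d16+10p was 1.57 (1.46 to 1.78). No other tested gene of this list was 2-fold apart, beside 0.985% of all tested genes higher in d16. Sp5 reached 50 CPM only in d16, so the count is a description. Ctnnb1 and Tcf7l1 had ratios of 0.45 and -0.56. Of 9 members with 10 to 50 CPM, Lef1 (43.9 and 9.93 CPM) and Cdx1 (46.3 and 10.5 CPM) were at least 2-fold higher in d16. Notum was higher in d16+10p (7.89 and 22.0 CPM), and Axin2 was at 32.5 and 21.5 CPM. Over all genes of that level the shares were 2.06% and 0.685%. Lef1 passed 10 CPM only through d16 and Notum only through d16+10p, so these counts are a description. Of 8 tested LIF and STAT3 genes, Socs2, a feedback inhibitor of cytokine signaling, was at least 2-fold higher in d16+10p (43.5 and 88.9 CPM). The share over all tested genes was 0.612%. Socs2 reached 50 CPM only in d16+10p, so the count is a description. Its ratio was under 2-fold in cells with reads of both Pou5f1 and Zfp42, below the chromosome limits given further on and with a pseudocount of 10 CPM. Its relative Socs3 was higher in d16 below the 50 CPM limit (35.1 and 12.9 CPM). Stat3 was at 64.9 and 66.0 CPM.

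The second difference lay in genes of the germ line and meiosis. Excluding Dppa5a, 9 members of this list were tested, with a median log2 ratio of 1.38. Of these, 6 were at least 2-fold higher in d16 and 0 in d16+10p, beside 0.985% and 0.612% of all tested genes. Smc1b and Hormad1 reached 50 CPM only in d16, so the count is a description. The list summed to 2667 CPM in d16, 1058 in d16+10p and 756 in naive cells. Dazl, an RNA-binding protein needed for germ cell development (chr17:50279395-50293636, GRCm38), was the most abundant, at 900 CPM (887 to 913) in d16, 226 CPM (220 to 232) in d16+10p and 174 CPM (167 to 181) in naive cells. Its log2 ratio was 1.99 (1.95 to 2.04). The study singled out Dazl on these same cells, so its level is not independent evidence.

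The remaining 5 include early meiotic genes. Stra8, the retinoic acid-induced gate to meiosis, was at 331 CPM in d16, 127 in d16+10p and 29.9 in naive cells. Smc1b, the cohesin subunit of meiotic chromosomes, was at 93.2, 15.9 and 10.0 CPM, the largest ratio of the list at 2.48 (2.39 to 2.72). Hormad1, which marks unsynapsed chromosome axes, was at 168, 47.8 and 36.6 CPM. All of them were lowest in naive cells, with d16+10p between. The uncharacterized 1700013H16Rik was at 245, 86.8 and 75.6 CPM and Ooep, an oocyte and embryo gene, at 147, 68.6 and 65.1 CPM, a ratio that was under 2-fold with both other scalings.

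Members that were not 2-fold apart were Rhox5 (331 and 250 CPM), Tex19.1 (60.5 and 41.6 CPM) and Tuba3a (62.2 and 66.4 CPM). A further 12 members had 10 to 50 CPM, and 9 of them were at least 2-fold higher in d16, beside 2.06% of all 6421 genes of that level. These pass 10 CPM through d16 where they are low in d16+10p, so the count is a description. They included Asz1 (45.0 and 4.81 CPM), which acts in the piRNA pathway, Ddx4 (41.4 and 15.3 CPM), the VASA helicase, and Sycp1 (17.0 and 3.48 CPM) and Sycp3 (27.9 and 11.5 CPM) of the synaptonemal complex. Sohlh2, a germ cell transcription factor outside the list, was at 57.5 CPM in d16 and 18.3 CPM in d16+10p.

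The germ line signal was spread over many cells. Among cells thinned to 5000 reads, 88.9% of d16 cells (87.1 to 90.6%) and 44.0% of d16+10p cells (40.8 to 47.3%) had a Dazl read, against 11.6% of the macrophage-like cells. Before thinning the shares were 94.8% and 72.5%. The summed list had a median of 2600 CPM in d16 cells and 1000 in d16+10p cells, and 5.06% of d16+10p cells exceeded the d16 median. At the low end, 4.84% of d16+10p and 0.485% of d16 cells had none of these reads.

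**Figure D3:**
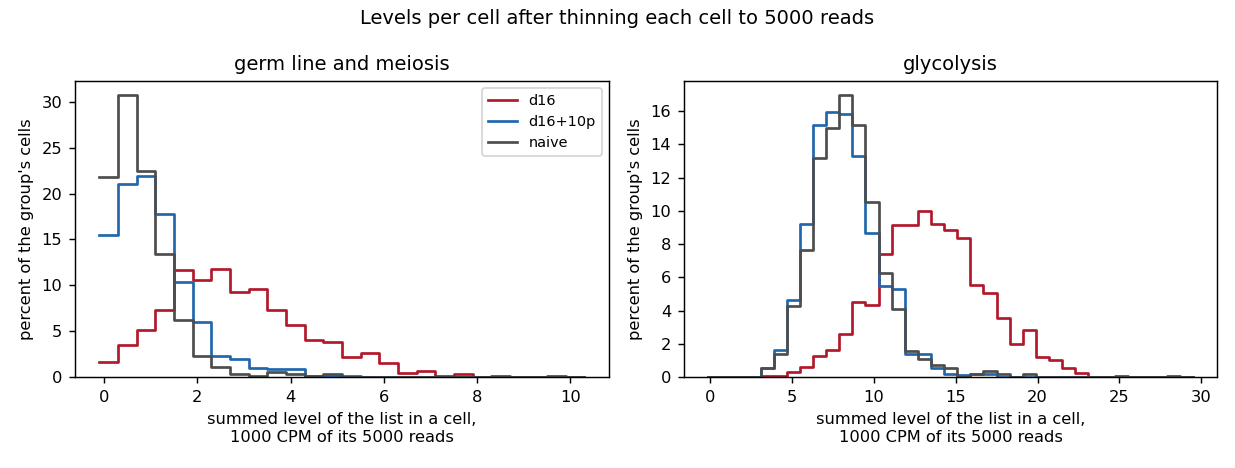
Steps give the percent of a group's cells (vertical axis) by the summed level of the germ line list (left) and of the glycolysis list (right) in a cell thinned to 5000 reads (horizontal axis, in units of 1000 CPM). The d16 curve (red) has its median at 2600 and 13400 CPM, and the d16+10p (blue) and naive (grey) curves lie together to its left.

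Genes of DNA methylation, a mark that keeps many germ line genes silent in other cells, were mostly within 2-fold. Their list holds enzymes and other factors. None of 10 tested genes was 2-fold apart (median -0.03), with Trim28 at 481 and 601 CPM, Uhrf1 at 191 and 212 CPM and Dnmt1 at 121 and 107 CPM. Dnmt3b, a de novo methyltransferase, was at 36.1 CPM in d16, 67.6 in d16+10p and 30.8 in naive cells. Its cofactor Dnmt3l, below the 50 CPM limit, was at 36.5, 4.86 and 11.3 CPM. Of 8 Polycomb genes 0 were 2-fold apart (median 0.38), with Mtf2 at 545 and 396 CPM and Ezh2 at 313 and 247 CPM. For 13 imprinted genes the median was 0.15, again with 0 genes 2-fold apart.

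The third difference was in glycolysis genes. Of 18 tested members, 7 were at least 2-fold higher in d16 and 0 in d16+10p, beside 0.985% and 0.612% of all tested genes. The median log2 ratio was 0.88. Slc16a3, Pfkl and Bnip3 reached 50 CPM only in d16, so the count is a description. The list summed to 13464 CPM in d16, 8231 in d16+10p and 8358 in naive cells. In the d16 cells left out, below the Dppa5a limit, it summed to 11112 CPM. Ldha, the lactate dehydrogenase subunit that turns pyruvate into lactate (chr7:46841475-46855627, GRCm38), was at 1082 CPM (1068 to 1096) in d16, 228 CPM (222 to 234) in d16+10p and 423 CPM (412 to 433) in naive cells. Slc16a3, the lactate exporter MCT4, was at 54.9 CPM (51.7 to 58.2) in d16, 6.66 CPM (5.65 to 7.80) in d16+10p and 8.61 CPM in naive cells, the largest ratio of the list at 2.87 (2.80 to 3.29).

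The other called genes lay at several steps of the pathway, with Bnip3 outside it. Slc2a1, the glucose transporter GLUT1, was at 262 CPM in d16 and 108 CPM in d16+10p, and Pfkl, a phosphofructokinase subunit, at 93.9 and 24.7 CPM. Tpi1 was at 544 and 187 CPM and Pgk1 at 781 and 322 CPM, enzymes on either side of the Gapdh step. Bnip3, a mitophagy receptor kept in this list, was at 177 and 39.5 CPM. The most abundant members were closer, with Aldoa (2394 and 1319 CPM), Pkm (2004 and 1059 CPM) and Eno1 (1059 and 567 CPM) just under 2-fold and Gapdh (2613 and 2578 CPM) level. Ldhb, the subunit that favors the reverse reaction, was at 217 and 298 CPM. Pdk1, which blocks pyruvate entry to respiration, was at 48.3 and 11.04 CPM.

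Per cell, most d16 cells lay above most d16+10p cells in this list. The median sum was 13400 CPM in d16 and 8000 in d16+10p cells after thinning, and 1.32% of d16+10p cells exceeded the d16 median. The ranges still met, since the 5th percentile of d16 was 8400 and the 95th of d16+10p was 11800. An Ldha read was found in 96.6% of d16 and 59.4% of d16+10p cells, but also in 79.2% of macrophage-like cells, which use the same enzyme.

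Several of these genes are known targets of hypoxia-inducible factor. A list of 24 hypoxia-induced genes was written after the values had been seen, and its median log2 ratio was 1.04. Of its 16 tested genes, 10 were at least 2-fold higher in d16 and 0 in d16+10p, beside 0.985% and 0.612% of all tested genes. Slc16a3, Bnip3, P4ha1 and Egln1 reached 50 CPM only in d16, so the count is a description. The list shares Ldha, Pgk1, Slc2a1, Bnip3 and Slc16a3 with glycolysis. The others were Fam162a (270 and 97.8 CPM), Ak4 (146 and 59.6 CPM), Plod2 (143 and 68.8 CPM), P4ha1 (63.6 and 30.5 CPM) and Egln1 (103 and 49.5 CPM), the last encoding the oxygen-sensing prolyl hydroxylase PHD2. The 3 last-named genes were under 2-fold with both other scalings. Ak4 was higher still in naive cells, at 250 CPM. Kdm3a, a demethylase induced by low oxygen, was at 83.0 and 115 CPM. The hypoxia list summed to 4003 CPM in d16 members, 1570 in d16+10p members and 4685 in the d16 cells left out. Its higher level was thus not particular to the d16 members. Culture oxygen and cell density were not measured here.

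The core letters that this factor reads, ACGTG, were searched on both strands in the 300 bases of RefSeq promoters (GRCm38.p6, 250 bases before to 50 after the start). They were held by 5 of the 7 glycolysis genes higher in d16 and by 15 of the 30 genes higher in d16 that had a promoter entry, against 28.9% of 2793 promoters of tested genes and 19.7% of all 27025. A match is a description and not a bound site. The motif was chosen after the values had been seen. The promoters of Ldha (chr7:46845554-46845853, plus strand), Bnip3 (chr7:138909457-138909756, minus strand) and Slc16a3 (chr11:120948817-120949116, plus strand), which include the largest ratios of the list, are shown 5′ to 3′ with the matches of either strand in capitals.
Ldha: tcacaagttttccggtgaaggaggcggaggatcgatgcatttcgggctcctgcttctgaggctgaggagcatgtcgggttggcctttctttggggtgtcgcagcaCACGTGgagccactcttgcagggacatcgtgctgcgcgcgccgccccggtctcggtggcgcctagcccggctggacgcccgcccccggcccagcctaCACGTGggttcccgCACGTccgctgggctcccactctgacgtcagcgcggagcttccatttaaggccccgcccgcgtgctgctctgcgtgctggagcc
Bnip3: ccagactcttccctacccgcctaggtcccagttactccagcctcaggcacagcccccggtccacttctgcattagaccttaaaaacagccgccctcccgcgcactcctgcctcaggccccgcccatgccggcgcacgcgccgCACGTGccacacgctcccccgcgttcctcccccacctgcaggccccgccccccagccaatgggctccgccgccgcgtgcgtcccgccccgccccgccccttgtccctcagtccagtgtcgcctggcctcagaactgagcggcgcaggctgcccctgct
Slc16a3: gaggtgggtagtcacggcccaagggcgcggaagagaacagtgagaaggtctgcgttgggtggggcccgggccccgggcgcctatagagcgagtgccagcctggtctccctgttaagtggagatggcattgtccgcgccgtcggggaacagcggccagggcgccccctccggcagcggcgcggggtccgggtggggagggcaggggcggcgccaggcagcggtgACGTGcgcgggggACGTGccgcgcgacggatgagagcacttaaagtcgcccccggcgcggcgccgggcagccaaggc

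In Ldha there were 5 matches and in the other promoters 2 each, and the palindrome CACGTG, which holds the letters on both strands and is also the E-box, counts as 2 of them. The E-box was held by 5 of the 30 promoters, the letters CGGAAG (ETS) by 2, CTTTGAT (TCF/LEF) by 1 and TTCNNNGAA (STAT) by 1, against 12.2%, 38.3%, 2.43% and 6.37% of the tested genes' promoters. The germ line genes higher in d16 had a median of 19.5 CpG sites per promoter, beside 23 in tested genes and 7 in all promoters.

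Transcripts of respiration did not follow those of glycolysis. Of 22 nuclear genes of oxidative phosphorylation 0 were 2-fold apart, and their ratios lay between -0.31 and 0.13 with a median of -0.05. Atp5b was at 1435 and 1525 CPM and Cox4i1 at 592 and 709 CPM. The 13 genes of the mitochondrial genome, which were kept out of the calls, summed to 67653 and 63265 CPM. The list of AMPK and its upstream kinases had 0 of 4 tested genes 2-fold apart (median 0.27), with Ulk1 at 103 and 83.5 CPM. A further 11 members had 10 to 50 CPM, and 0 of them were 2-fold apart. These are transcript levels, and kinase activity was not measured here. Of 13 genes of purine synthesis, the pathway that has AICAR as an intermediate, 0 were 2-fold apart (median -0.07). Atic, the enzyme that consumes it, was at 66.3 and 74.9 CPM and Hprt, of purine salvage, at 187 and 108 CPM.

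On the d16+10p side the largest ratio was that of Cyp1a1, a xenobiotic-metabolizing cytochrome P450 and classical target of the aryl hydrocarbon receptor (AHR; chr9:57687928-57703824, GRCm38). It was at 4.81 CPM (3.92 to 5.85) in d16, 114 CPM (110 to 118) in d16+10p and 112 CPM (107 to 118) in naive cells, a log2 ratio of -4.30 (-4.87 to -4.27, an interval of the ratio without the pseudocount). Nqo1, a quinone reductase induced by AHR and NRF2, was at 11.99, 87.1 and 82.1 CPM. The 2iL populations were thus level with each other and d16 stood apart. A Cyp1a1 read was found in 32.3% of thinned d16+10p cells (29.3 to 35.5%) and 1.94% of d16 cells, the latter at the background of 2.04% in macrophage-like cells.

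A list of AHR and NRF2 targets was written after the values had been seen, and its median was -0.39. Cyp1a1 and Nqo1 were the 2 of 11 tested genes at least 2-fold apart, beside 0.612% of all tested genes higher in d16+10p. Both reached 50 CPM only in d16+10p, so the count is a description. Gsta4 was at 364 and 601 CPM, Pgd at 110 and 210 CPM and Hmox1 at 60.1 and 69.3 CPM. The promoter of Cyp1a1 (chr9:57697363-57697662, plus strand, RefSeq, GRCm38.p6) held 1 match of GCGTG, the core letters that AHR reads, in capitals here.
Cyp1a1: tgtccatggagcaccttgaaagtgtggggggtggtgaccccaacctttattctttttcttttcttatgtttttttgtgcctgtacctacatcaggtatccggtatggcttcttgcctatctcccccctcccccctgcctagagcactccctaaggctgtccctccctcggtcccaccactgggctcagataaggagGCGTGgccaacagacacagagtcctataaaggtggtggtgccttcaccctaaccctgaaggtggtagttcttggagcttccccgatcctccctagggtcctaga

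That motif was held by 8 of 16 promoters of genes higher in d16+10p, by 16 of 30 of those higher in d16 and by 56.3% of those tested, so it did not set the genes apart.

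The metallothioneins, which bind zinc and other metals, had the highest levels among the genes higher in d16+10p. Mt1 was at 533 CPM in d16, 1611 in d16+10p and 1325 in naive cells, a log2 ratio of -1.59 (-1.63 to -1.57). Mt2 was at 526, 1925 and 1632 CPM, a ratio of -1.87 (-1.90 to -1.84). Both were the only tested members of a list of 4 metallothioneins written after the values had been seen. Per thinned cell, their sum had a median of 600 CPM in d16 and 3400 in d16+10p, and 97.1% of d16+10p cells exceeded the d16 median. Metallothionein reads were also frequent in macrophage-like cells, of which 97.6% had an Mt1 read.

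Lists of amino acid metabolism also lay on this side. Of 10 genes of ATF4 and amino acid stress, 3 were at least 2-fold higher in d16+10p and 0 in d16 (median -0.44). Over all tested genes these shares were 0.612% and 0.985%. Nupr1 and Slc7a3 reached 50 CPM only in d16+10p, so the count is a description. Psat1, which makes serine, was at 67.9 CPM in d16, 205 in d16+10p and 182 in naive cells. Slc7a3, an arginine and lysine transporter, was at 13.3, 59.4 and 32.0 CPM, and the stress regulator Nupr1 at 15.6, 98.7 and 72.5 CPM. Asns (290 and 372 CPM) and Atf4 itself (165 and 222 CPM) were within 2-fold. Ddit4, also a hypoxia target, went the other way at 163 and 80.9 CPM, just under 2-fold. Of 9 members with 10 to 50 CPM, Trib3 (5.01 and 21.6 CPM), Chac1 and Psph were at least 2-fold higher in d16+10p. The share over all genes of that level was 0.685%. Trib3 passed 10 CPM only through d16+10p, so this count is a description as well.

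In one-carbon metabolism, 2 of 11 tested genes were at least 2-fold higher in d16+10p, beside 0.612% of all tested genes (median -0.38). Tdh, the threonine dehydrogenase on which mouse embryonic stem cells rely, was at 135 CPM in d16, 319 in d16+10p and 335 in naive cells. Mthfd2, a mitochondrial folate enzyme, was at 52.0, 119 and 170 CPM. Shmt2 was at 62.9 and 95.6 CPM and Mat2a at 228 and 278 CPM. Among 19 tested cytosolic aminoacyl-tRNA synthetases, Nars (111 and 264 CPM) and Aars (86.7 and 193 CPM) were at least 2-fold higher in d16+10p. The share over all tested genes was 0.612%. The median of this list was -0.62. It was written after the values had been seen, so its count and median are a description. Slc7a1, another cationic amino acid transporter, was at 40.2 and 82.5 CPM, a ratio under 2-fold as a mean over cells, without the cells of most reads, below the chromosome limits and with a pseudocount of 10 CPM.

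Lipid synthesis showed a single gene past 2-fold among 18 tested, beside 0.612% of all tested genes higher in d16+10p. This gene, Scd1, reached 50 CPM only in d16+10p, so the count is a description. Scd1, the stearoyl-CoA desaturase, was at 23.1 CPM in d16, 96.0 in d16+10p and 110 in naive cells, a log2 ratio of -2.01 (-2.20 to -1.91). Its paralog Scd2 was at 300 and 539 CPM, Fasn at 74.8 and 133 CPM and Fdps at 113 and 200 CPM. The median of the 18 tested genes was -0.28. Elovl6 (224 and 170 CPM) lay on the other side.

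**Figure D4:**
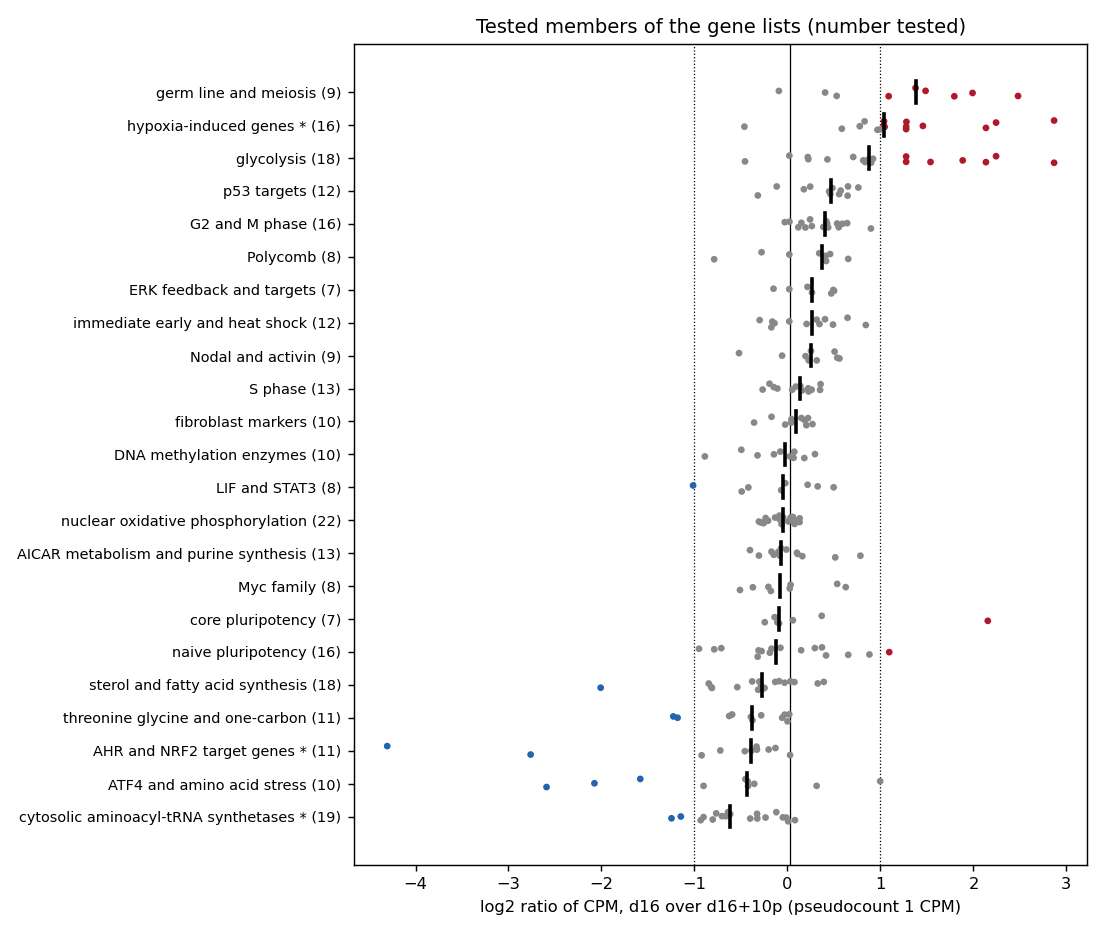
Each point is a tested gene of a list, placed by its log2 ratio of d16 over d16+10p, in red or blue when at least 2-fold apart; bars are list medians, dotted lines mark 2-fold, the solid line is the median of all 3758 genes, and stars mark lists written after the values had been seen. The germ line, hypoxia and glycolysis lists lie to the right, and the tRNA synthetase and ATF4 lists to the left.

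The next lists held 0 tested genes past 2-fold. The 12 tested p53 targets had a median of 0.47 (below 50 CPM, Pmaip1 was at 36.6 and 12.3 CPM), with Cdkn1a, the cell cycle inhibitor p21, at 749 and 509 CPM and Ccng1 at 397 and 267 CPM. The 16 genes of G2 and M phase had a median of 0.40, with Top2a at 451 and 336 CPM and Ccnb2 at 125 and 66.7 CPM, and the 13 genes of S phase had a median of 0.14. MHC class I and interferon genes had a median of -0.41 over 5 genes, with Ifitm3 at 224 and 371 CPM and Ifitm1 at 164 and 308 CPM. Immediate early and heat shock genes (12 tested, 0.26) and the Myc family (8 tested, -0.08) were near the median of all genes, with Jun at 318 and 177 CPM and Npm1 at 4127 and 5882 CPM. The antigens that carried the tags, Cd9 and Cd63, were within 2-fold as well.

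Markers of other cell types were read in both groups. Fibroblast markers, which MEF feeders express, summed to 1917 CPM in d16, 2057 in d16+10p, which had no feeders, and 1902 in naive cells, against 6902 CPM in the d16 cells left out. None of their 10 tested genes was 2-fold apart, with Sparc at 581 and 655 CPM and Col1a2 at 158 and 137 CPM. Macrophage markers summed to 316, 507 and 808 CPM, of which Lyz2 made up 206, 360 and 635 CPM. Smooth muscle markers (275 and 234 CPM), epithelial markers (647 and 726 CPM), endoderm markers (35.7 and 28.0 CPM) and neural markers (386 and 421 CPM) were close, except Tubb3, the neuronal tubulin, at 26.8 CPM in d16, 115 in d16+10p and 51.7 in naive cells. The part of free RNA in these levels was not tested.

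Of the largest ratios in d16, 3 came from a small set of cells. Eif4a3l1 was at 57.3 CPM in d16 and 5.59 in d16+10p, the largest ratio of all at 3.15 (3.10 to 3.63), but a read was found in 2.42% and 2.20% of thinned cells. Most of its reads in d16 lay in cells that also held transcripts of the two-cell stage, when the embryonic genome is first switched on. A list of such genes, Zscan4c, Gm4340 and Gm8300 among them, reached 1000 or more CPM in 42 of 1278 d16 cells (3.29%, 2.38 to 4.42%), 4 of 926 d16+10p cells (0.432%, 0.118 to 1.10%) and 0 of 570 naive cells, which allows a share of up to 0.526% by the limit of 3 counts and 0.645% by the exact interval used for the other groups.

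The list also holds Eif1a, which was at 203, 197 and 215 CPM in the 3 groups and made up most of its sum there. Those 42 cells held 96.0% of the Eif4a3l1 reads of d16, 86.8% of those of Gm16344 and 78.0% of those of Gm38947. As members of the list that chose these cells, Gm4340 (868 and 0.986 CPM), Zscan4c (484 and 1.68 CPM) and Tcstv1 (328 and 0.197 CPM) had to differ between them and the other 1236 d16 members, and their levels are a description only. Pou5f1 was at 211 CPM (173 to 256) in these cells and 349 CPM (341 to 357) in the others, whereas Zfp42 was at 478 and 488 CPM. Without the cells at this limit in either group, the log2 ratio was -0.04 for Eif4a3l1, 0.37 for Gm16344 and 0.57 for Gm38947. Between the 42 cells and the other 1236 d16 members, Dazl was at 1104 and 895 CPM and Ldha at 884 and 1087 CPM. Eif4a3l1 and the Zscan4 genes have near-identical copies among which reads may be shared, and Gm16344, like Gm45774, is an antisense transcript whose reads cannot be told from its partner's without strand.

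Of the remaining genes at least 2-fold higher in d16, Dmrtc1c2, an X-linked gene with close copies, was at 56.1 and 8.98 CPM, and Prelid2 at 58.2 and 10.5 CPM. Ccn2, a matricellular target of YAP, was at 131 and 41.0 CPM. Rdm1, Txnip, Sgk1, Ptp4a3, Pttg1, Olfr1459, Cyct, Pgm1 and Gadd45b had ratios between 1.05 and 1.34, of which Cyct, Pgm1 and Gadd45b were under 2-fold with both other scalings and Pttg1 and Olfr1459 with that of DESeq2. Olfr1459 was highest in naive cells (396 CPM). On the d16+10p side these were Gm45774, Rpp25, Pla2g1b, Prorp, Calcoco2, 1700019D03Rik, S100a13 and Chchd10, with ratios between -1.64 and -1.14, of which 1700019D03Rik and S100a13 were under 2-fold with a pseudocount of 10 CPM and S100a13 also after thinning. Chchd10, a mitochondrial protein, was at 217 and 479 CPM.

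Whole chromosomes were compared last. The median ratio of a chromosome's tested genes lay within -0.06 and 0.04 of the autosomal median for each autosome and for X. Of the 23 genes higher in d16+10p, 6 lay on chromosome 8 (Nqo1, Tubb3, Mt2, Gm45774, Mt1 and Aars), which holds 5.56% of the tested genes. Of these, Mt2, Gm45774 and Mt1 lie within 10 kb of each other, so the 6 genes are 4 places. The share of autosomal reads on each chromosome was also taken per cell, over genes under 300 CPM in cells with 8000 or more reads. On all 20 chromosomes the SD between cells was above that of counting alone, 1.48 to 2.41 times in d16 and 1.45 to 2.66 times in d16+10p. Chromosomes 3, 8 and 15 had the highest multiples in both groups, with 3 first in d16 (2.41) and 8 first in d16+10p. Chromosomes 8 and 15 are described further, a choice made after the distributions were seen.

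In d16+10p the chromosome 8 share had a median of 5.69% and an SD of 0.629 points, 2.66 times that expected from counting alone, and in d16 a median of 5.53% and an SD of 0.627 points, 2.33 times. At a limit of 6.1%, set after the distribution was seen, 243 of 1072 d16 cells (22.7%, 20.2 to 25.3%) and 290 of 883 d16+10p cells (32.8%, 29.7 to 36.1%) were in an upper range. In primed-tagged cells with Pou5f1 the share was 39.6%, and in the naive line 89.1%. At a limit of 4.9% for chromosome 15, 142 d16 (13.2%) and 103 d16+10p cells (11.7%) were in an upper range. In both ranges were 12 and 8 cells, beside 32.2 and 33.8 expected from the products of the shares. The cause of this was not tested. Within 0.2 points of the limits lay 143 and 87 cells for chromosome 8, and 111 and 64 cells for chromosome 15. The sizes of the upper ranges thus depend on the limits. Reads show the share of RNA and not the number of chromosomes.

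**Figure D5:**
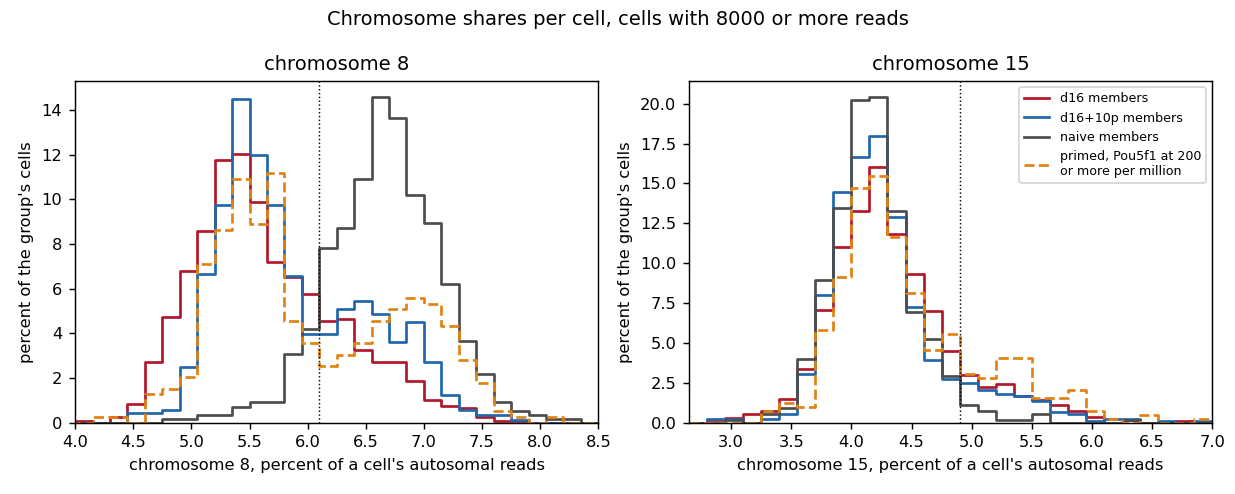
Steps give the percent of a group's cells (vertical axis) by the share of autosomal reads on chromosome 8 (left) or 15 (right), over genes under 300 CPM in cells with 8000 or more reads; dotted lines are the limits 6.1% and 4.9%. The d16, d16+10p and primed curves have a main peak below the chromosome 8 limit and a smaller part above it, while most naive cells lie above.

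Among cells below both limits, 699 in d16 and 498 in d16+10p, 49 genes were at least 2-fold higher in d16 and 24 in d16+10p, of which 36 and 21 were the same genes as over all members. There the chromosome 8 genes Mt1, Mt2, Nqo1, Tubb3 and Aars had log2 ratios of -1.70, -1.97, -2.72, -2.16 and -1.18. Dazl and Ldha were at 2.08 and 2.31.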

How the data were processed

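Single cells of 5 tagged populations were captured with BD Rhapsody and amplified by TAS-Seq in 1 pooled library. The deposited table holds raw counts, with a gene symbol per row and a cell per column. The authors, as their methods state, trimmed reads with cutadapt 2.10, mapped them with Bowtie2 2.3.4.1 to Ensembl transcripts of GRCm38.p6, filtered barcodes at the knee, and assigned tags and removed tag doublets. Reads were not merged by molecular identifier as far as the methods state, and no doublet caller was run here. Seurat 2.3.4 is named in the submitters' processing notes and was not used. The table held 33963 genes, 17720 cells and 3179 to 111822 reads per cell.

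Here, reads were summed over the cells of a tag with Dppa5a at 1000 CPM or more, scaled to CPM (a total of 1000000) and compared as log2 ratios with a pseudocount of 1 CPM. A gene was tested, that is compared, when it had 50 CPM or more in either group and 100 or more summed reads. Genes of the mitochondrial genome and Dppa5a were left out of the calls, and called means at least 2-fold apart. With 1 sample per group nothing was tested for significance. Counts have exact Poisson intervals, shares exact binomial (Clopper-Pearson) intervals, and ratios intervals from the binomial without the pseudocount, all at 95% and for counting error only. For shares of cells with a read and for levels per cell, each cell was thinned to 5000 reads, which left out 40 d16, 17 d16+10p and 10 naive cells. As background, 1097 cells of any tag with macrophage markers at 2000 CPM or more were used, of which 933 were deep enough.

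The 33 gene lists, 4 more that were written after the values were seen, and the members themselves were chosen with earlier results of these data known. Named genes are the 15 with the largest ratio in each direction, all called members of a list, the core and naive pluripotency genes, and up to 4 abundant members of the other lists. Genes named for levels of 10 to 50 CPM, or as other examples, were chosen after their values were seen. Of the 60 called genes, 58 had a position in GENCODE M21 (GRCm38). Promoters were read from RefSeq. The scripts were tested on simulated data. Python 3.11.15 with numpy 2.4.6, scipy 1.17.1 and pandas 2.3.3 was used, and R 4.3.3 with edgeR and DESeq2 for scaling factors only. The tag library's own counts were not used here.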

Additional observations from a re-analysis of the deposited data

How the results depend on the processing

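Each group was 1 tagged sample and the groups are not replicated, so no replicate could be left out. No paired analysis was possible because the groups compared share no replicate numbers. Of the 60 genes called, 59 kept their direction under all 13 settings run on them and 43 stayed at least 2-fold apart in all, and Eif4a3l1 went to -0.044 without cells with genes of the two-cell stage. The 13 settings were other Dppa5a limits, other choices of cells, averaging over cells, thinning, both other scalings, a pseudocount of 10 CPM and, chosen after seeing the data, only cells below the chromosome 8 and 15 limits. The numbers higher in d16 and d16+10p, 37 and 23, became 169 and 67 with a filter of 10 CPM and 455 and 107 without a filter, because more genes were compared. With TMM and DESeq2 scaling 36 and 39 genes were higher in d16+10p. The naive list's median of -0.12 was -0.036 after thinning, -0.25 with TMM and -0.29 with DESeq2. The germ line median of 1.38 was 1.28 at a limit of 500, 1.25 in cells with reads of Pou5f1 and Zfp42, 1.5 without the tenth of cells with most reads, 1.57 as a mean over cells, 1.51 after thinning, 1.25 with TMM, 1.21 with DESeq2, 1.21 without a filter and 1.53 below the chromosome limits. Glycolysis moved from 0.88 to 0.75 and 0.72, and ATF4 from -0.44 to -0.58 and -0.61, with TMM and DESeq2. The d16 and d16+10p shares at the Dppa5a limit were 32.2% and 83.75% at 500, 25.4% and 66.8% at 2000, 33.8% and 83.4% in cells with more than 2000 and fewer than 8000 genes, and 33.4% and 83.0% after thinning. Where no construction above explains a shift, the cause was not tested. Depth limits genes under 50 CPM, and a single culture per group means that the spread between cultures is unknown.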
